A study of Homo sapiens with 10 samples.

Results

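The CEACAM and trefoil factor families were examined through 7 genes, CEACAM1, CEACAM5, CEACAM6, CEACAM7, TFF1, TFF2 and TFF3, out of 35606 genes listed in each of 2 expression tables of QGP-1 cells. The members were taken by gene name, and the set had been chosen on measured values of these samples, namely that the knockdown of PIKFYVE and the inhibitor apilimod gave different values for CEACAM6 and TFF1. The knockdown and apilimod values of the members are therefore given as a description, with no test. Torin-1 against DMSO was tested, although that comparison shares its DMSO samples with the apilimod comparison. Of the 7 members, 5 reached a mean of at least 1 CPM in each table and entered the fits, while CEACAM7 and TFF2 lay below it.

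The QGP-1 line was established from a human pancreatic neuroendocrine tumor. RNA-seq was available for 10 samples, 2 in each of 5 groups, to ask what loss of the lipid kinase PIKfyve or inhibition of the kinase mTOR changed in these cells. In the first table, QGP-1 cells carried a lentiviral vector with dCas9-KRAB, a Cas9 without nuclease activity fused to a transcriptional repressor, and after puromycin selection expressed either the control guide sgNC (genotype WT in the labels) or the single guide sgPIKFYVE-1 (PIKFYVE knockdown). In the second table, QGP-1 cells labelled WT received DMSO, 1 µM apilimod, which inhibits PIKfyve, or 100 nM Torin-1, which inhibits both mTOR complexes. The labels give 24 h for the drugs, whereas the legends of the paper give a shorter exposure. The labels also describe removal of ribosomal RNA, the paper's methods oligo(dT) selection. The knockdown is 1 guide in a selected population, the time from knockdown to harvest is not given in the sources used here, and nothing says that replicates came from separate cultures, so that p-values measure only the spread between these samples. Levels are a signal on the scale of CPM (read counts scaled to a common library size), normalized separately in each table.

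From the step between low values, each sample held an estimated 9.30 to 13.6 M reads, and 3 reads corresponded to 0.227 to 0.329 CPM, a floor that covers counting error only. PIKFYVE itself was at 101 and 97.5 CPM with sgNC and at 10.9 and 12.5 CPM with sgPIKFYVE-1. All 12 neuroendocrine markers examined were above 1 CPM in every group. Their summed level was 9770 to 10158 CPM with sgNC and 8440 to 8711 with sgPIKFYVE-1, 9895 to 9898 with DMSO, 8605 to 8737 with apilimod and 12624 to 13061 with Torin-1. The markers did not move together. CHGB was at 2477 and 2586 CPM with sgNC and 1555 and 1619 with sgPIKFYVE-1, NCAM1 at 69.7 and 66.0 and at 90.6 and 85.8. SCG2 was at 4043 and 4084 CPM with DMSO and 5468 and 5622 with Torin-1, SYP at 153 and 154 and at 131 and 127. The 5 goblet cell markers, of which MUC2 and CLCA1 were at 0 in both samples of every group, summed to at most 1.21 CPM in any sample. Of the granulocyte markers, FCGR3B and MPO were at 0 in both samples of every group and the sum stayed between 0.950 and 4.75 CPM. Fibroblast markers summed to 2.01 to 10.4 CPM, leukocyte markers to 0.377 to 2.49 and endothelial markers to 0.895 to 3.93. Of 4 acinar markers, PRSS1 alone reached 3 reads in both samples of a group, in all 3 groups of the drug table, where the list summed to 5.42 to 5.65 CPM with DMSO, 13.2 to 14.9 with apilimod and 11.9 to 18.0 with Torin-1. The part of these differences in the members' values was not tested, and in bulk samples fewer cells of a type and less RNA per cell cannot be told apart.

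The CEACAM proteins belong to the immunoglobulin superfamily and sit on the surface of epithelial and some blood cells, where they bind one another and several bacterial adhesins. CEACAM1 crosses the membrane and can carry an inhibitory signal through its tail, whereas CEACAM5, the carcinoembryonic antigen followed as a serum marker in gut cancers, CEACAM6 and CEACAM7 are held by a glycosylphosphatidylinositol (GPI) anchor. Trefoil factors are small secreted peptides folded into disulfide-bonded trefoil domains. They are released with mucins and help to restore damaged mucosa: TFF1 in the gastric surface epithelium, TFF2 in the deeper gastric glands and TFF3 in intestinal goblet cells.

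The CEACAM members lie on chromosome 19 and the trefoil factors side by side on chromosome 21 (GENCODE 29, GRCh38). CEACAM7 occupies chr19:41673307-41706976 on the minus strand, CEACAM5 chr19:41708585-41729798 and CEACAM6 chr19:41750977-41772208 on the plus strand, and CEACAM1 lies farther along at chr19:42507304-42561234 on the minus strand. TFF3 (chr21:42311667-42315651), TFF2 (chr21:42346357-42351128) and TFF1 (chr21:42362282-42366594) are all on the minus strand. Each of the 7 is annotated as protein coding. The 4 CEACAM members had a RefSeq promoter window (GRCh38.p14), and the 250 bases before each start are shown. CEACAM1, CEACAM5 and CEACAM6 were all higher in the knockdown, CEACAM6 by the most, and a link of these letters to the levels was not tested. Capitals mark the E-box form CACGTG or the 6 bases aligned with it.
CEACAM5: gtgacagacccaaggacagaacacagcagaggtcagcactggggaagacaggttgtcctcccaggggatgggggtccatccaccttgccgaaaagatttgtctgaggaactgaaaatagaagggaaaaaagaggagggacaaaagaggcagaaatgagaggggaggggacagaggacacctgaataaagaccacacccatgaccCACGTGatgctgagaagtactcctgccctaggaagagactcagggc
CEACAM6: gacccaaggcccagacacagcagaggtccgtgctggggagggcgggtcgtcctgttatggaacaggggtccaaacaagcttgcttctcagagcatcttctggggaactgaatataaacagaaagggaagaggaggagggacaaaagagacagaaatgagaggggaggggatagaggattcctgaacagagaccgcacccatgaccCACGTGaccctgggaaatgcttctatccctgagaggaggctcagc
CEACAM7: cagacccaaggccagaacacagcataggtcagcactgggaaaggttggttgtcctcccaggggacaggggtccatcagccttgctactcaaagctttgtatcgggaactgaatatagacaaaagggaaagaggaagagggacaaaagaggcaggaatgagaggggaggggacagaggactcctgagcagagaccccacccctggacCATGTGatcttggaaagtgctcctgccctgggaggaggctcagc
CEACAM1: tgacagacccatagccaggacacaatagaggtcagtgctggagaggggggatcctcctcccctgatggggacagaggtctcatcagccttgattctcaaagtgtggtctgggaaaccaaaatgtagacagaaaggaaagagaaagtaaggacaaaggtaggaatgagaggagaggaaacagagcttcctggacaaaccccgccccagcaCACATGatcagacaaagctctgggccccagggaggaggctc
These windows are chr19:41708376-41708625 (plus strand) for CEACAM5, chr19:41755280-41755529 (plus strand) for CEACAM6, chr19:41688271-41688520 (minus strand) for CEACAM7 and chr19:42528482-42528731 (minus strand) for CEACAM1. The last 3 lie inside the longer GENCODE gene models.

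After alignment the CEACAM5 window was identical to that of CEACAM7 at 83.6% of aligned bases, to that of CEACAM6 at 78.5% and to that of CEACAM1 at 66.4%. The E-box form CACGTG, searched on both strands, began 46 bases before the start of CEACAM5 and 45 before that of CEACAM6. It occurred in 6.34% of the 35116 RefSeq promoter windows, each searched over the 250 bases before the start. CEACAM7 had CATGTG at the aligned place, 44 bases before its start, and CEACAM1 had CACATG, 41 bases before. A GC box (GGGCGG, in 42.6% of windows) was present in CEACAM6 and CEACAM1, and the letters TATAAA (10.7%) in CEACAM6. An interferon-type repeat (GAAA and again GAAA with any 2 bases between, in 3.02% of windows) was present in CEACAM1, 116 bases before the start. The letters of an AP-1 site (TGANTCA, 6.57%), a forkhead site (TGTTTAC, 2.98%) and a sterol element (TCACNCCAC, 0.883%) were in none of the 4 windows. These matches describe the letters only.

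Knockdown of PIKFYVE went with higher CEACAM1, CEACAM5 and CEACAM6 and with lower TFF1 and TFF3. In this comparison 42.5% of 13591 genes passed the limma test (Benjamini-Hochberg adjusted p under 0.05), 21.6% higher and 20.9% lower. No call is given for the members here, because these values served to choose them. For the same reason the ranks of CEACAM6 and TFF1 among all genes, given below, are a description of the choice and no separate result.

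CEACAM6 was at 60.9 and 58.6 CPM with sgNC and at 494 and 499 CPM with sgPIKFYVE-1. Its mean was 8.31-fold higher in the knockdown, with a log2 fold change of 3.03 (SE 0.05) on the log2(CPM + 1) scale used throughout, and only 1 of the 13591 genes had a higher one. CEACAM5, the most abundant member, was at 1518 and 1493 CPM with sgNC and at 3938 and 3795 CPM with sgPIKFYVE-1. Both knockdown samples lay above both control samples, and the log2 fold change was 1.36 (SE 0.04). CEACAM1 was at 14.0 and 15.3 CPM with sgNC and at 34.6 and 36.9 CPM with sgPIKFYVE-1, a log2 fold change of 1.23 (SE 0.11). Thus CEACAM1 and CEACAM5 had ratios of means of 2.44 and 2.57, while that of CEACAM6 was more than 3 times as large.

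TFF1 was at 107 and 114 CPM with sgNC and at 11.1 and 11.4 CPM with sgPIKFYVE-1. On average 10.2% of the control level was left, and the log2 fold change of -3.19 (SE 0.09) was the lowest of all 13591 genes, below that of PIKFYVE itself (-2.98, SE 0.10). TFF3, the more abundant trefoil factor, was at 551 and 556 CPM with sgNC and at 283 and 251 CPM with sgPIKFYVE-1. It was lower in both knockdown samples, with a log2 fold change of -1.05 (SE 0.05) and a mean at 48.2% of the control.

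**Figure D1:**
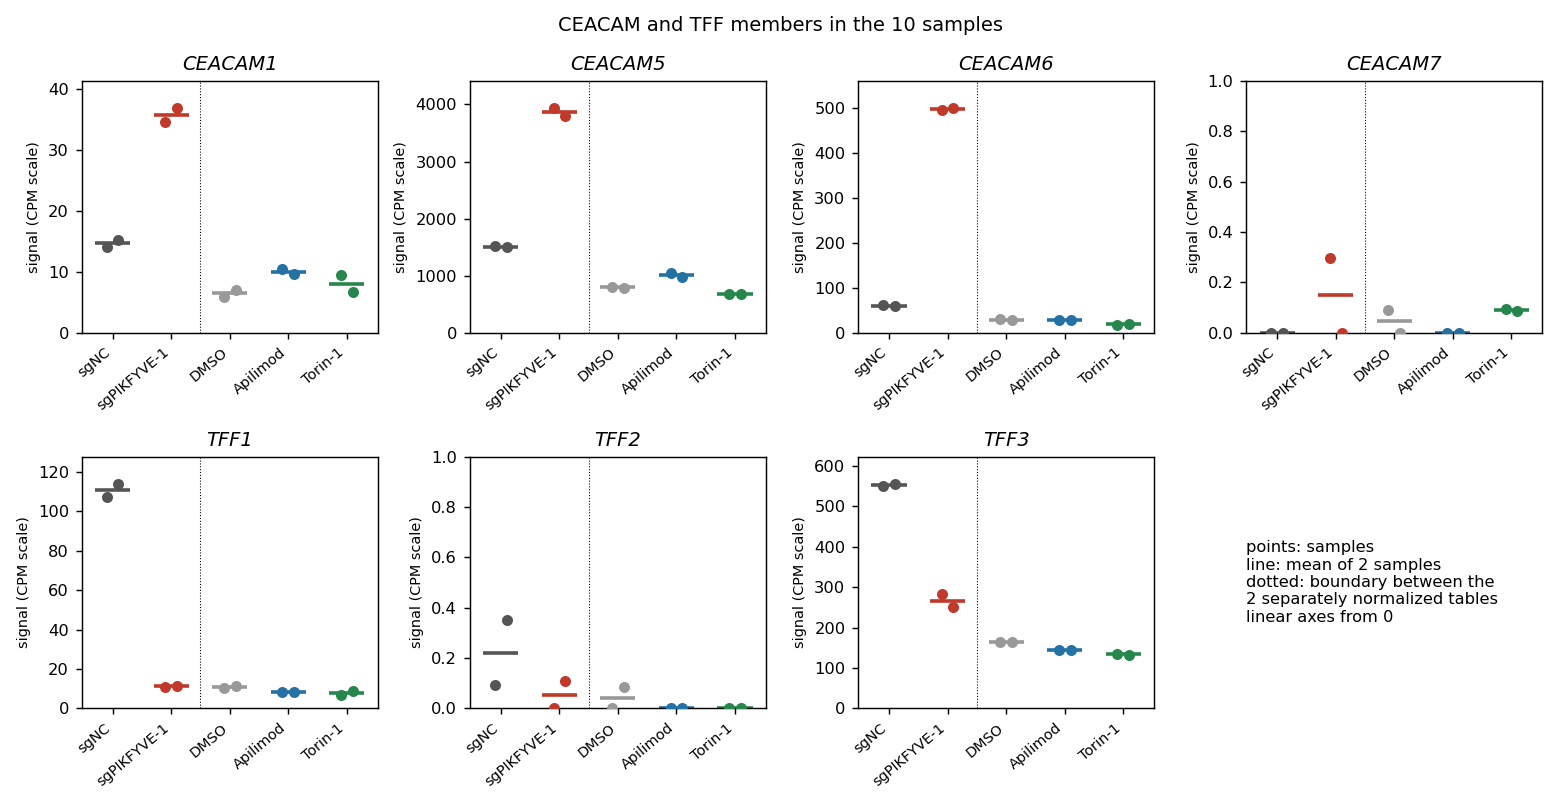
Signal on the CPM scale of the 7 members in each of the 10 samples, on linear axes from 0 that differ between genes, with points for samples and a line for the mean of each group of 2. CEACAM6 averaged 59.8 CPM with sgNC and 496 with sgPIKFYVE-1, TFF1 averaged 111 CPM with sgNC and 11.3 with sgPIKFYVE-1, and CEACAM7 and TFF2 stayed below 0.35 CPM.

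Apilimod gave another pattern for the same genes. Among all genes 8.54% of 13520 passed the test, 5.75% higher and 2.79% lower. The members are again given by their values, with no call. CEACAM5 was at 798 and 787 CPM with DMSO and at 1042 and 969 CPM with apilimod, a log2 fold change of 0.34 (SE 0.04) in which both treated samples lay above both controls. CEACAM1 was at 5.89 and 6.97 CPM with DMSO and at 10.4 and 9.56 CPM with apilimod, with a log2 fold change of 0.57 (SE 0.18). CEACAM6, the member that differed most in the knockdown, was at 29.3 and 27.6 CPM with DMSO and at 28.2 and 27.0 CPM with apilimod. Here the groups overlapped, and the log2 fold change was -0.04 (SE 0.11).

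TFF1 was at 10.2 and 11.2 CPM with DMSO and at 8.44 and 8.09 CPM with apilimod, a log2 fold change of -0.34 (SE 0.16). The apilimod mean was 77.1% of the DMSO mean, against 10.2% for the knockdown in its own table. TFF3 was at 165 and 165 CPM with DMSO and at 144 and 145 CPM with apilimod, with a log2 fold change of -0.19 (SE 0.06). For both trefoil factors the apilimod samples lay below the DMSO samples, by less than the knockdown samples lay below sgNC. No test compares the 2 tables, which differ in vector, selection, normalization and length of PIKfyve loss.

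Torin-1 went with lower levels of CEACAM5, CEACAM6, TFF1 and TFF3. Among 13520 genes 38.5% passed the test, 16.6% higher and 21.8% lower, and 4 of the 5 tested members passed it, all lower. CEACAM7 and TFF2, under the filter on low values, were not tested. CEACAM6 fell to 17.2 and 19.1 CPM, with a log2 fold change of -0.62 (SE 0.11, limma adjusted p = 4.14e-04). CEACAM5 fell to 684 and 670 CPM, by 0.23 on the log2 scale (SE 0.04, limma adjusted p = 8.46e-04), although without a variance trend its adjusted p was 0.0653. Both Torin-1 samples lay below both DMSO samples for either gene, and for CEACAM5 the apilimod samples lay on the other side of DMSO. CEACAM1 was at 9.41 and 6.65 CPM, overlapping its DMSO samples, with a log2 fold change of 0.27 (95% interval -0.12 to 0.65, limma adjusted p = 0.261).

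TFF3 fell to 135 and 132 CPM with Torin-1, a log2 fold change of -0.30 (SE 0.06, limma adjusted p = 7.18e-04). TFF1 was at 6.99 and 8.54 CPM, below both DMSO samples, with a log2 fold change of -0.42 (SE 0.16, limma adjusted p = 0.0458). That call was lost when any 1 sample other than Torin-1 replicate 2 was left out, with log2 fold changes of -0.55 to -0.30 and adjusted p up to 0.254 over the 6 omissions. It was also lost when only DMSO and Torin-1 were fitted (0.0533) and with no filter on low values (0.126).

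**Figure D2:**
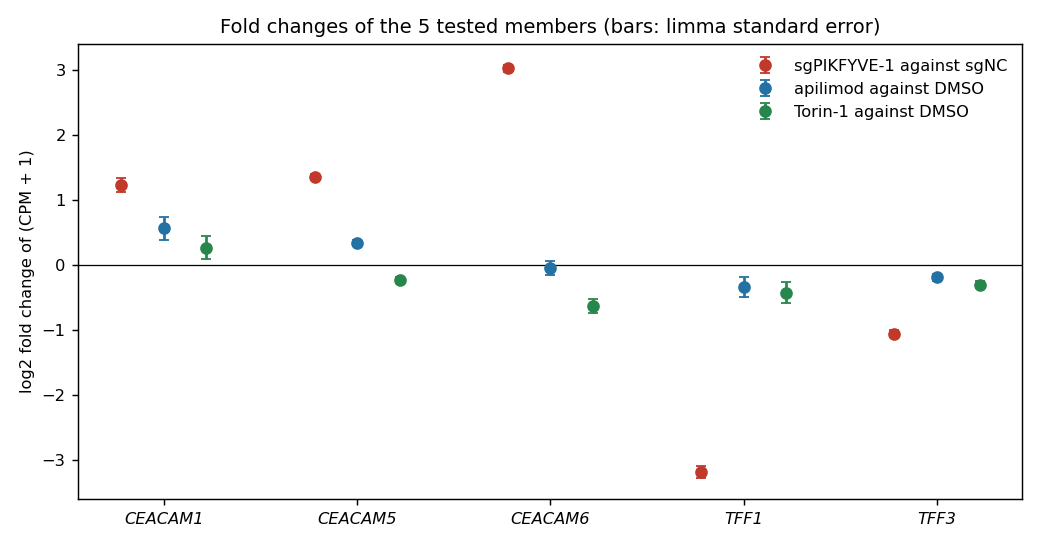
Log2 fold change of CPM + 1 for the 5 tested members in the 3 comparisons, with bars for the limma standard error. The knockdown points of CEACAM6 (3.03) and TFF1 (-3.19) stand far from the apilimod points of the same genes (-0.04 and -0.34), and the apilimod and Torin-1 points share their DMSO samples.

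The control samples of both tables are shown side by side because the members started from different levels in them. TFF1 averaged 111 CPM with sgNC and 10.7 CPM with DMSO, a ratio of 10.3. The log2 difference of 3.25 was the fifth highest of 13235 genes that averaged 1 CPM or more in both tables (rank 5), among which the median difference was 0.01 and the 5th and 95th percentiles were -0.93 and 0.93. The sgPIKFYVE-1 mean of TFF1, 11.3 CPM, was 1.05 times the DMSO mean. TFF3 averaged 554 CPM with sgNC and 165 CPM with DMSO, a ratio of 3.36 and rank 112.

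The CEACAM members were also higher with sgNC than with DMSO, by ratios of 2.28 for CEACAM1, 1.90 for CEACAM5 and 2.10 for CEACAM6. Their log2 differences, 1.07, 0.92 and 1.04, had ranks of 480, 670 and 503. Since each table was normalized on its own and the control cells differ in vector and selection, these differences carry no test, and handling and culture cannot be told apart from the vector. PIKFYVE was at 72.0 and 69.9 CPM with DMSO, against the 101 and 97.5 CPM with sgNC.

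**Figure D3:**
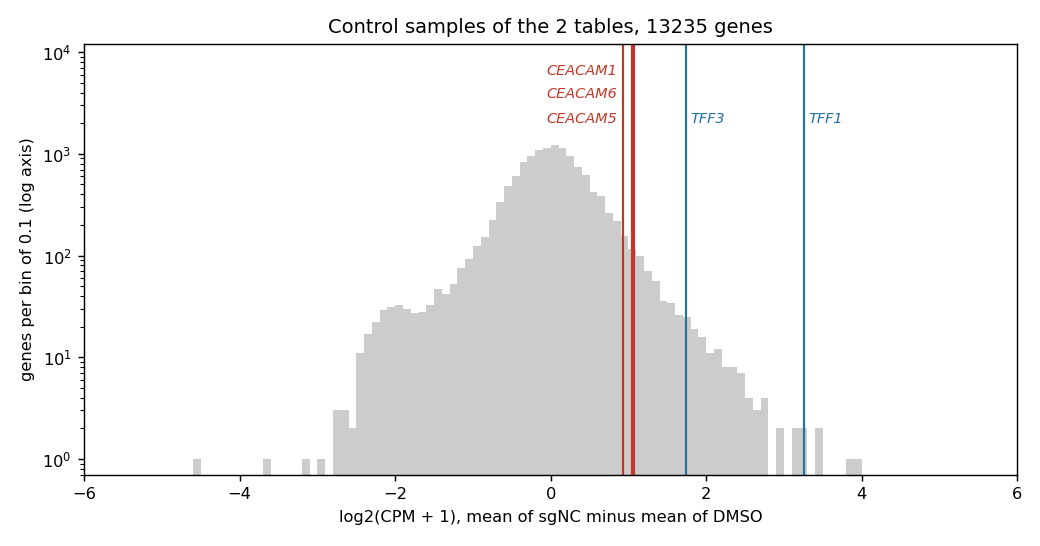
Histogram of the difference in mean log2(CPM + 1) between sgNC and DMSO over 13235 genes, with a log axis for the number of genes per bin and lines at the 5 tested members. The CEACAM members lie at 0.92 to 1.07, near the 95th percentile of 0.93, TFF3 lies at 1.74 and TFF1 at 3.25.

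Within each family the makeup was compared inside samples, which does not depend on the scaling of a sample. CEACAM6 amounted to 4.01% and 3.92% of CEACAM5 with sgNC and to 12.5% and 13.2% with sgPIKFYVE-1. With DMSO the share was 3.68% and 3.51%, with apilimod 2.71% and 2.78% and with Torin-1 2.52% and 2.85%. The sgNC and DMSO samples thus lay close together in this share although their CEACAM5 levels differed by a ratio of 1.90, and both drugs were below DMSO. Since CEACAM5 was so abundant, the CEACAM5 and CEACAM6 sum followed it, being 1579 and 1552 CPM in the sgNC samples and 4432 and 4294 CPM in the knockdown.

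TFF1 amounted to 19.5% and 20.5% of TFF3 with sgNC and to 3.91% and 4.56% with sgPIKFYVE-1. The share was 6.21% and 6.77% with DMSO, 5.86% and 5.57% with apilimod and 5.17% and 6.45% with Torin-1. The sgNC samples stood apart from the other 8, which lay between 3.91% and 6.77%, and the Torin-1 samples overlapped those of DMSO.

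**Figure D4:**
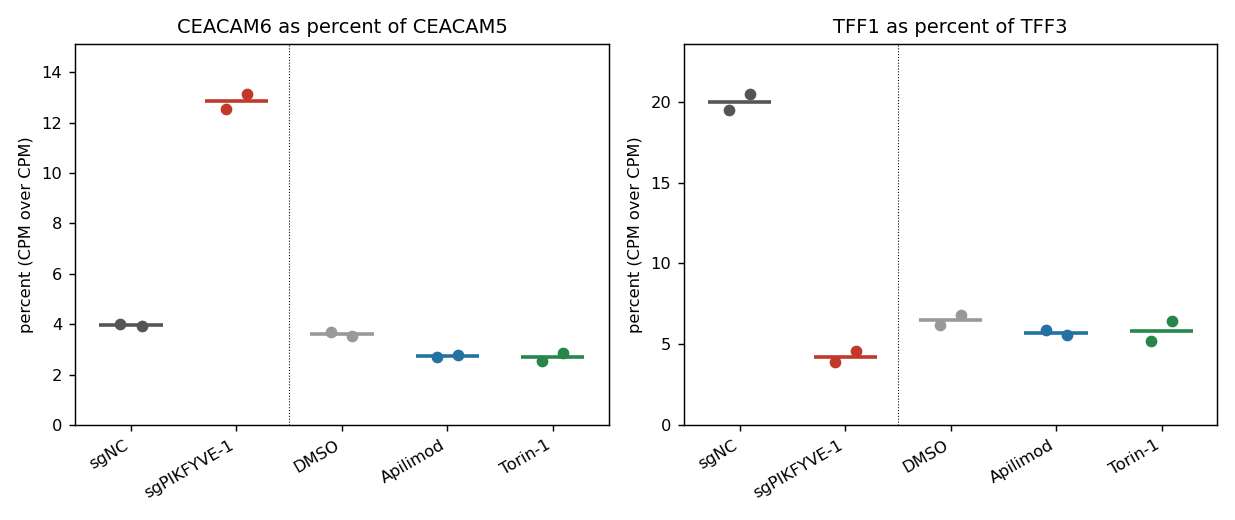
CEACAM6 as a percent of CEACAM5 (left) and TFF1 as a percent of TFF3 (right) in each sample, CPM over CPM, with axes from 0 and a line for the mean of each group of 2. The sgPIKFYVE-1 samples are highest on the left at 12.5% and 13.2%, and the sgNC samples are highest on the right at 19.5% and 20.5%.

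Per length of the annotated exons, CEACAM5 ranked first among the members in every group, with a mean level of 518 CPM per kb with sgNC, 1330 with sgPIKFYVE-1 and 273 with DMSO. TFF3 came second, at 479, 231 and 143 CPM per kb in the same groups. TFF1 followed with sgNC (201 CPM per kb) and with DMSO (19.4), ahead of CEACAM6 (19.6 and 9.33), whereas with sgPIKFYVE-1 CEACAM6 at 163 CPM per kb stood above TFF1 at 20.4. CEACAM1 was the lowest of the tested members, at 1.68 to 9.36 CPM per kb over the 5 groups. The samples of neighbouring tested members in this order did not overlap in any group.

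CEACAM7, known from the apical surface of the colon, was at 0 in both sgNC samples and both apilimod samples, and at most at 0.295 CPM, in sgPIKFYVE-1 replicate 1. All 10 values lay under the floor of 3 reads. TFF2 was at 0.0927 and 0.349 CPM with sgNC, the second value being about 4 reads, and in the other 8 samples it was at or under 0.108 CPM, below the floor. A difference in either gene was not detectable at this depth, and no fold is given.

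Reads of close relatives can be split by counting. Of the stretches of 31 bases in the CEACAM5 transcripts of GENCODE 29, 26.9% also occurred in transcripts of other genes, and the shares were 14.4% for CEACAM6, 8.34% for CEACAM1 and 1.63% for CEACAM7. Over 100 bases the shares were 14.8%, 1.73%, 0.441% and 0%, and the trefoil factors shared none at either length. Most of the shared CEACAM5 sequence was that of AC243967.1, a protein-coding entry at chr19:41708612-41761282 on the plus strand that overlaps CEACAM5 and CEACAM6. It was at 71.4 and 77.2 CPM with sgNC and at 195 and 183 CPM with sgPIKFYVE-1 (log2 fold change 1.34, SE 0.06), so the CEACAM5 and CEACAM6 levels are uncertain by what was assigned to it. In the drug table it was at 35.7 and 28.2 CPM with DMSO, 41.6 and 30.4 with apilimod and 27.0 and 26.8 with Torin-1.

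Beside the CEACAM genes 13 neighbours were tested, the 3 nearest on each side of each member. In the knockdown 2 of them rose and 3 fell, beside 21.6% and 20.9% of all genes, so the count says nothing particular about these neighbours. PSG4, a pregnancy-specific glycoprotein of the wider CEACAM family 631 kb from CEACAM1, rose from 9.74 and 8.23 to 29.9 and 28.9 CPM (log2 fold change 1.61, SE 0.14, limma adjusted p = 1.32e-08), and the other was the overlapping AC243967.1. CEACAM3, a granulocyte receptor 24.2 kb from CEACAM6, had a log2 fold change of 0.11 (SE 0.28, limma adjusted p = 0.788). With apilimod limma called 0 of the 13, also at an unadjusted p under 0.05, and with Torin-1 it called 1 higher and 1 lower. Among all genes 8.54% were called with apilimod, and with Torin-1 16.6% higher and 21.8% lower.

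Around the TFF genes 6 neighbours were tested, of which 1 rose and 1 fell in the knockdown, again beside 21.6% and 20.9% of all genes. ABCG1, a sterol exporter 14.4 kb beyond TFF3 and the nearest tested gene, had a log2 fold change of 0.14 (SE 0.12, limma adjusted p = 0.346) in the knockdown and fell with apilimod (-0.91, SE 0.16, limma adjusted p = 0.00177). PDE9A, a phosphodiesterase 287 kb away on the other side, fell in the knockdown (-0.58, SE 0.17, limma adjusted p = 0.00933) and C2CD2 rose (0.28, SE 0.09, limma adjusted p = 0.0175).

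**Figure D5:**
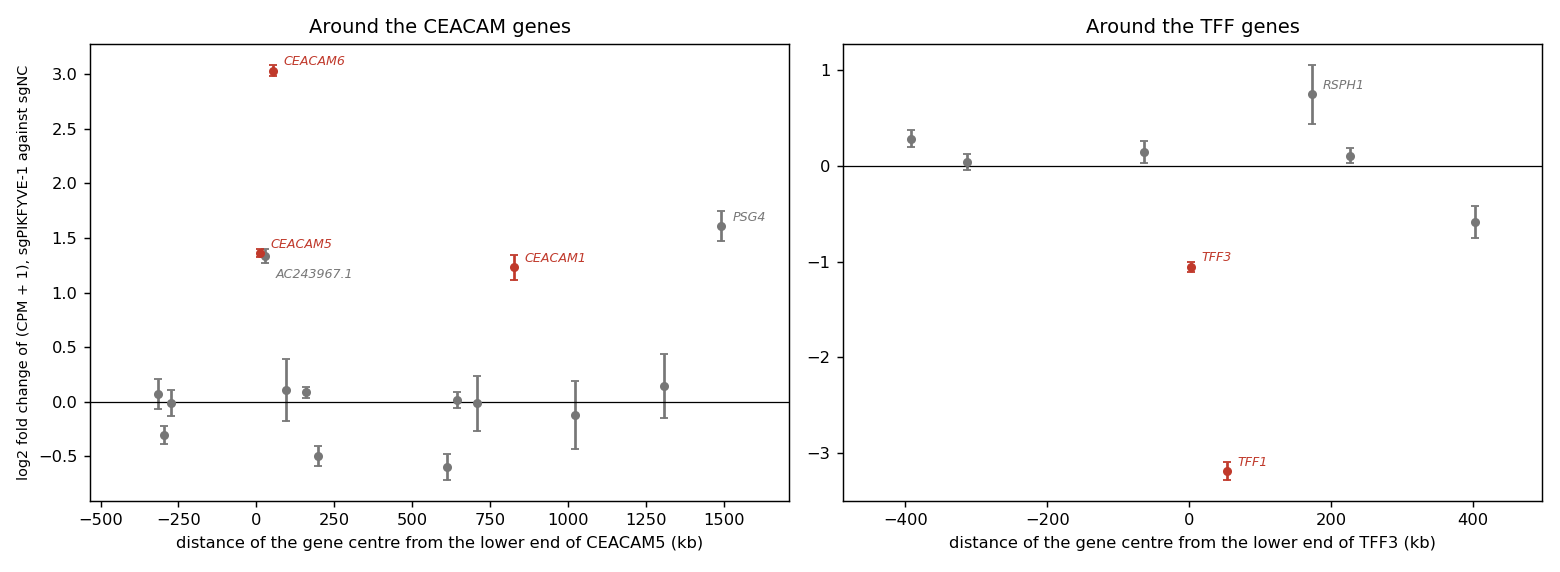
Log2 fold change of CPM + 1 in the knockdown against distance in kb from the lower end of CEACAM5 (left) or TFF3 (right), with the tested members in red, tested neighbours in grey and bars for the limma standard error. On the left PSG4 (1.61) and the overlapping entry AC243967.1 (1.34) lie among the members, and on the right no neighbour falls below -0.58 while TFF1 is at -3.19.

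This list and those below were chosen with earlier results of these data known, so their calls and shares are a description and no independent support. Other genes of the CEACAM and PSG family were mostly too low to test, and 6 of 18 passed the filter. In the knockdown PSG4 rose and the other 5 did not pass, and the median log2 fold change was 0.13 against 0.00 over all genes. With apilimod and Torin-1 limma called 0 of the 6, beside 8.54% and 38.5% of all genes. An unadjusted p under 0.05 was reached by 1 gene in each. For Torin-1 limma called 1 with no variance trend and 1 with a replicate block. The Torin-1 count also moved when Torin-1 replicate 2 was left out. The medians were 0.33 and -0.26, against -0.01 over all genes in both fits.

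Mucins and mucosal secretory proteins were examined as a list of 30 genes. The gel-forming mucins on it, MUC2, MUC5AC, MUC5B and MUC6, lay under the filter on low values and were not tested. The mucins that passed were MUC1, MUC3A, MUC13 and MUC20, so the shares below do not describe the gel mucins. Of 8 tested in the knockdown 4 rose and 1 fell (62.5% called, beside 42.5% of all genes), with a median log2 fold change of 0.84. Since the list was chosen with earlier results known, this share is a description. MUC13, a membrane mucin of the gut, rose from 78.7 and 80.0 to 269 and 269 CPM (1.75, SE 0.06, limma adjusted p = 5.98e-15). LYZ, the antibacterial enzyme lysozyme, rose from 6.32 and 4.81 to 15.5 and 18.4 CPM (1.45, SE 0.17, limma adjusted p = 1.57e-06). GKN2, a gastrokine that pairs with TFF1 in the stomach, rose from 1.02 and 1.05 to 4.49 and 2.91 CPM (1.19, SE 0.28, limma adjusted p = 0.002), opposite to TFF1. AGR2, an isomerase of the endoplasmic reticulum needed for mucin folding, fell by 0.37 on the log2 scale (SE 0.06, limma adjusted p = 1.04e-04).

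With apilimod 2 of 7 rose and 0 fell (28.6% called, beside 8.54% of all genes), with a median of 0.07. MUC13 went from 37.7 and 37.0 to 49.5 and 46.7 CPM (0.36, SE 0.09, limma adjusted p = 0.0253) and MUC3A, another membrane mucin, had a log2 fold change of 0.66 (SE 0.18, limma adjusted p = 0.0415). Both calls were lost when any 1 of the DMSO or apilimod samples was left out, with adjusted p up to 0.171 and 0.299. Neither passed with no filter on low values (0.0578 and 0.191) or with no variance trend (0.0638 and 0.0951), and MUC3A did not with quantile normalization (0.0543). With Torin-1 2 of 7 fell and 0 rose (28.6% called, beside 38.5% of all genes), with a median of -0.10. MUC13 fell to 19.7 and 20.2 CPM (-0.87, SE 0.09, limma adjusted p = 6.39e-06) and AGR2 fell by 0.39 (SE 0.10, limma adjusted p = 0.0083). The AGR2 call was lost without DMSO replicate 1 (0.0813) or Torin-1 replicate 1 (0.0735). MUC13 was thus on the same side of its control as CEACAM5 in each of the 3 comparisons, of which the last 2 share DMSO samples.

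Transcription factors, most of them of gut and foregut epithelium, were examined as a list, which was also chosen with earlier results known. The list also holds more widely expressed factors such as IRF1 and ESRRA, which are counted in the shares below. In the knockdown 8 of 15 tested rose and 2 fell (66.7% called, beside 42.5% of all genes), with a median log2 fold change of 0.37. IRF1, an interferon-responsive factor, rose from 16.8 and 18.6 to 47.0 and 40.2 CPM (1.25, SE 0.11, limma adjusted p = 3e-08). KLF4, a factor of differentiated epithelium, rose by 0.88 (SE 0.14, limma adjusted p = 4.24e-05). GATA4, a foregut factor, was at 0.917 and 3.32 CPM with sgNC and at 0.00628 and 0.207 CPM in the knockdown (-1.38, SE 0.39, limma adjusted p = 0.00688). Both knockdown values lie under the floor of 3 reads, and the gene passed the filter through its sgNC samples. Its fold change depends on the pseudocount, being -3.37 on the log2 scale with 0.1 in place of 1. The call was lost with no filter on low values (adjusted p = 0.0662), with no variance trend (0.0736) and without sgNC replicate 2 (log2 fold change -0.80, adjusted p = 0.2).

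With apilimod 3 of 13 rose and 0 fell (23.1% called, beside 8.54% of all genes), with a median of 0.10. The 3 were IRF1 (0.63, SE 0.12, limma adjusted p = 0.0038), ELF3, an epithelial ETS factor (0.55, SE 0.07, limma adjusted p = 2.17e-04), and KLF4 (0.44, SE 0.12, limma adjusted p = 0.0387). The KLF4 call was lost when any 1 of the DMSO or apilimod samples was left out, with adjusted p up to 0.238. With no filter on low values the calls of IRF1 (0.0655) and KLF4 (0.115) were lost, and likewise with no variance trend (0.0771 and 0.0529), so that 1 of the 13 was called under either. With Torin-1 2 of 13 rose and 2 fell (30.8% called, beside 38.5% of all genes), with a median of 0.08. FOXA2, a forkhead factor of endoderm, rose (0.61, SE 0.06, limma adjusted p = 4.79e-06), KLF5 rose (0.45, SE 0.08, limma adjusted p = 7.48e-04) and GRHL2 fell (-0.35, SE 0.09, limma adjusted p = 0.00696).

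Surface epithelium genes were examined as a list of adhesion, junction and keratin genes, again chosen with earlier results known. Of 11 tested in the knockdown, 7 rose and 1 fell (72.7% called, beside 42.5% of all genes), with a median log2 fold change of 0.23. TSPAN8, a tetraspanin, rose from 831 and 856 to 1311 and 1407 CPM (0.69, SE 0.04, limma adjusted p = 1.44e-10). KRT7, a ductal keratin, fell from 506 and 522 to 355 and 341 CPM (-0.56, SE 0.04, limma adjusted p = 6.15e-09), and CLDN7, a tight junction claudin, rose by 0.30 (SE 0.05, limma adjusted p = 1.01e-04). With no variance trend 2 of the 11 were called, and CLDN7 was not (adjusted p = 0.0596).

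With apilimod 2 of the 11 rose and 3 fell (45.5% called, beside 8.54% of all genes), with a median of 0.02. The largest changes were those of VIL1, TSPAN8 and KRT7 (-0.32, -0.27 and -0.26, SE 0.09, 0.07 and 0.06). The VIL1 call was lost without any 1 of the DMSO or apilimod samples, the TSPAN8 call without either DMSO sample or apilimod replicate 1, and the KRT7 call without either DMSO sample or apilimod replicate 2. The count of 5 fell to 0 without either DMSO sample, to 1 without apilimod replicate 1 and to 3 without apilimod replicate 2, and it was 0 with no filter on low values or no variance trend. With Torin-1 1 of 11 rose and 6 fell (63.6% called, beside 38.5% of all genes), with a median of -0.24. VIL1, the villin of microvilli, fell from 58.4 and 54.5 to 30.1 and 27.9 CPM (-0.94, SE 0.09, limma adjusted p = 2.19e-06). KRT19 fell by 0.44 (SE 0.12, limma adjusted p = 0.00957), a call lost without DMSO replicate 1 (0.055) or Torin-1 replicate 2 (0.0808), and CLDN7 fell by 0.37 (SE 0.06, limma adjusted p = 3.83e-04).

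Genes that build and attach the GPI anchor, which holds CEACAM5, CEACAM6 and CEACAM7, form a list of 29, of which 28 were tested. In the knockdown 3 rose and 5 fell (28.6% called, beside 42.5% of all genes), with a median log2 fold change of -0.01. PIGZ, a mannosyltransferase, fell from 11.0 and 10.1 to 3.95 and 3.99 CPM (-1.22, SE 0.19, limma adjusted p = 3.25e-05), and PIGK, the protease subunit of the GPI transamidase, rose by 0.48 (SE 0.08, limma adjusted p = 4.78e-05). PIGL, a deacetylase, fell by 0.69 (SE 0.18, limma adjusted p = 0.00428), a call lost without sgNC replicate 1 (0.112) or sgPIKFYVE-1 replicate 1 (0.0602), with no filter on low values (0.0926) and with no variance trend (0.0794). The count of 8 fell to 4 without sgNC replicate 1, to 5 without sgNC replicate 2 or sgPIKFYVE-1 replicate 1, and to 3 with no filter on low values or no variance trend.

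With apilimod limma called 0 of the 28, beside 8.54% of all genes, with 4 at an unadjusted p under 0.05. With Torin-1 it called 32.1% of the 28, beside 38.5% of all genes. With Torin-1 6 rose and 3 fell, with a median of 0.10, and the count of 9 fell to 3 without either DMSO sample and to 4 with no filter on low values or no variance trend. DPM3, which anchors the dolichol-phosphate-mannose synthase, fell by 0.58 (SE 0.15, limma adjusted p = 0.00731) and PIGW, an acyltransferase, by 0.57 (SE 0.14, limma adjusted p = 0.00524), whereas PIGV, a mannosyltransferase, rose by 0.55 (SE 0.15, limma adjusted p = 0.0114). The DPM3 call was lost without DMSO replicate 1 (0.0755), the PIGW call without DMSO replicate 2 (0.096), with no filter (0.0554) or with no variance trend (0.0559), and the PIGV call without DMSO replicate 1 (0.0727) or Torin-1 replicate 1 (0.0534).

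A short list held partners known to receive or pass on CEACAM1 or trefoil signals. Of 6 tested in the knockdown, 4 fell and 1 rose, beside 20.9% and 21.6% of all genes, with a median log2 fold change of -0.44 and no test of the list. ACKR3, a chemokine receptor also described to bind trefoil factors, was at 9.18 and 9.69 CPM with sgNC and at 0.767 and 1.83 CPM with sgPIKFYVE-1 (-2.22, SE 0.25, limma adjusted p = 7.49e-07). CXCR4, a second such receptor, fell from 27.4 and 28.6 to 15.6 and 14.1 CPM (-0.87, SE 0.12, limma adjusted p = 8.61e-06). PTPN6, the phosphatase SHP-1 recruited to the CEACAM1 tail, fell by 0.48 (SE 0.07, limma adjusted p = 2.72e-05), so that it and CEACAM1 were on opposite sides of the control. The gene that rose was PTPN11, the other such phosphatase on the list (0.19, SE 0.06, limma adjusted p = 0.0201), on the same side as CEACAM1. How far the PTPN11 call depends on the settings is not given here.

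With apilimod limma called 0 of the 5 tested partners, with 1 at an unadjusted p under 0.05. Among all genes 8.54% were called with apilimod, and with Torin-1 16.6% higher and 21.8% lower. With Torin-1 2 rose and 2 fell, a count of 4 that was 2 with no variance trend or without DMSO replicate 1. CXCR4 was at 3.35 and 2.07 CPM with DMSO and at 0.280 and 0.0862 CPM with Torin-1 (-1.63, SE 0.28, limma adjusted p = 4.49e-04). The first Torin-1 value lies at the floor of 3 reads (0.279 CPM), and the second is about 1 read. CXCR4 passed the filter only through its DMSO and apilimod samples, and the size of its fold change is not fixed by these values, being -3.36 with a pseudocount of 0.1. The other gene that fell was PTPN11 (-0.24, SE 0.06, limma adjusted p = 0.00555). EGFR rose by 0.53 (SE 0.07, limma adjusted p = 4.41e-05) and PTPN6 by 0.30 (SE 0.09, limma adjusted p = 0.0219), of which the PTPN6 call was lost without either DMSO sample or Torin-1 replicate 2, with adjusted p up to 0.13, and also with no filter (0.0793) or no variance trend (0.0893).

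The genes most like each member were sought among 811 candidates by Pearson r over the 10 samples, each as log2(CPM + 1) minus the control mean of its own table. These r describe the pattern, and the points share tables, controls and, above all, the knockdown samples. CEACAM6 was most like TNFSF15, a cytokine of the TNF family (r = 0.997, knockdown log2 fold change 2.16), followed by PAPSS2, ORC6, CLU and DDC. CEACAM5 was most like GDF15, a stress-induced cytokine (r = 0.997), which had log2 fold changes of 2.02, 0.57 and -0.47 in the knockdown, apilimod and Torin-1 comparisons, against 1.36, 0.34 and -0.23 for CEACAM5, and MIPEP, MYB, NR0B1 and LBH followed. CEACAM1 was most like LPL, lipoprotein lipase (r = 0.98), then PLXNA2, SQSTM1, KCNA2 and WLS.

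TFF1 was most like SPSB1 (r = 0.99), then ZMYM4, SEMA4B, TRIM9 and FKBP9, and TFF3 was most like TRIM9, a ubiquitin ligase of neurons (r = 0.99), then ZFYVE28, SEMA4B, CRYBG2 and SH3D21. TRIM9 had log2 fold changes of -2.86, -0.43 and -0.50 in the knockdown, apilimod and Torin-1 comparisons, against -3.19, -0.34 and -0.42 for TFF1. Between the members themselves r was 0.97 for CEACAM5 with CEACAM6, 0.83 for CEACAM1 with CEACAM6, 0.98 for TFF1 with TFF3 and -0.95 for CEACAM6 with TFF1. The knockdown values that served to choose the members enter these r, which describe the choice and are no separate result. With Torin-1 CEACAM6 and TFF1 were both lower (-0.62 and -0.42), and with apilimod they were at -0.04 and -0.34.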

How the data were processed

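Poly(A) or ribosome-depleted RNA of QGP-1 cells was sequenced. Trimming (Trimmomatic), transcript quantification, summing per gene and TMM scaling (edgeR) were done by the authors. The deposited values are a signal on the CPM scale, in 1 table per experiment, each normalized by the authors on its own, so sums differ between samples (972493 to 1024332). Build hg38 is given in the processing notes. The quantifier is not given in the sources used here. Plain CPM had been assumed in the design, and the same log-scale test was used. Of low values 62.5% to 66.4% were whole reads (within 0.01 read), too few for a count test. No pair of replicates agreed within sampling noise (median chi-square over Poisson 1.87 to 2.56).

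Genes that averaged 1 CPM or more over a table entered limma 3.58.1 as log2(CPM + 1) (R 4.3.3, trended eBayes). P-values were adjusted by Benjamini-Hochberg within each fit, and 0.05 was the threshold. The pseudocount of 1 makes changes of low genes look smaller. There were 4 samples in the knockdown fit and 6 in the drug fit, and the procedure was tested on simulated data. Alternatives were no variance trend, a replicate block, no filter, a pseudocount of 0.1, quantile normalization, only the 2 groups compared, and each sample left out. Their use on lists was added after seeing the data. Named list genes are up to 3 per list and comparison with the largest change among those past the threshold (others were chosen after their values were seen). Likeness used genes with an absolute log2 fold change of at least 1 in a comparison. Members and lists were chosen with earlier results of these data known. Promoters were aligned with mafft 7.526, and transcripts were those of GENCODE 29. Figures used matplotlib 3.10.9 in Python 3.11.15.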

Additional observations from a re-analysis of the deposited data

How the results depend on the processing

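The number of genes called in the knockdown was 5772, and 3709 with no variance trend. With apilimod it was 1155 (67.4% higher), and 565 with no filter on low values, 466 with no variance trend and 1194 with quantile normalization (55.1% higher). Whether the replicate numbers pair the samples is not settled by the correlations of replicate differences (0.04 to 0.10). A replicate block gave 6111, 1756 and 5903 calls for knockdown, apilimod and Torin-1, against 5772, 1155 and 5202 without it. Leaving out 1 sample gave 4471 to 5151, 597 to 1310 and 3583 to 5181 calls. The apilimod count was 656 and 597 without DMSO replicates 1 and 2 and 689 without apilimod replicate 1.

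With each sample left out, the members' knockdown log2 fold changes ran from 1.17 to 1.29 (CEACAM1), 1.33 to 1.39 (CEACAM5), 3.01 to 3.06 (CEACAM6), -3.23 to -3.15 (TFF1) and -1.14 to -0.97 (TFF3). Those of TFF1 for Torin-1 ran from -0.55 to -0.30, and the number of members called with Torin-1 was 3 or 4. Among the untested knockdown and apilimod values, those that moved by more than the replicate SD when no sample was left out were CEACAM5 in the knockdown under quantile normalization (1.40), TFF1 in the knockdown with a pseudocount of 0.1 (-3.29), and CEACAM5 (0.25) and TFF3 (-0.20) with apilimod under quantile normalization. With Torin-1, TFF3 was at -0.25 under quantile normalization, past the threshold but moved by more than the replicate SD, while CEACAM5 was not past the threshold with no variance trend (-0.23, adjusted p = 0.0653), nor TFF1 with no filter on low values or only the 2 groups compared (-0.42 in both, adjusted p = 0.126 and 0.0533). Of 38 named list genes, counted per comparison, 16 lost their call under 1 or more alternatives and none of the 38 changed direction in any alternative run. With 2 samples a group, the spread is known poorly.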
